A study of Mus musculus with 9 samples.

Results

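The 8 small leucine-rich proteoglycan genes Aspn, Dcn, Lum, Ogn, Bgn, Fmod, Prelp and Omd, together with Dpt, which encodes dermatopontin, were followed in mouse fetal ovaries after transplantation into male hosts. Small leucine-rich proteoglycans are secreted core proteins whose leucine-rich repeats bind collagen, and most of them carry chains of chondroitin, dermatan or keratan sulfate. They set how collagen fibrils assemble and hold growth factors such as TGF-beta in the matrix. Dermatopontin is a small matrix protein outside that family that binds decorin and is made by fibroblasts. These genes mark the fibroblasts and stroma of many adult tissues. The 9 genes were selected on earlier results from these arrays, in which Aspn and Dpt stood out by their increase after day 0, and the other members were taken with them as their family. They are 9 of 18194 genes with a probe set of their own on the array, and 20 probe sets were annotated to one of them alone. Each gene is described by its brightest probe set on average, with its other probe sets as a check.

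The grafts were E13.0 XX ovaries, recovered at 5 times between day 4 and day 20 post-transplantation (days 4, 7, 10, 15 and 20). They were taken from beneath the kidney capsule of adult XY nude mice, with approximately 10 grafts pooled per array. The study names the hosts as BALB/c mice with the nu/nu genotype, which lack a thymus and mature T cells. The day 0 samples were E13.0 XX ovaries that had not been grafted. No array held ungrafted ovaries of the age of the grafts, or grafts from female hosts. In a comparison with day 0, the age of the tissue, grafting, cells from the host and the male host therefore cannot be told apart. All embryos, those of day 0 included, came from mothers given busulfan, which kills germ cells, so that every sample came from gonads depleted of germ cells. The labels name the ICR strain, whereas the study names C57BL/6 and ICR for the pregnant females, and the host numbers the study lists are for its histology and RT-qPCR grafts, not for the array pools. Days 0, 10 and 20 had 2 arrays each and days 4, 7 and 15 had 1 array each. The duplicates are labelled as biological replicates, but with the litters and hosts of each pool unknown the p-values cover the spread between pools and no more.

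Values are log2 intensities of Affymetrix arrays after robust multiarray normalization, with array medians between 6.49 and 6.63, and values under 4.82 (the 25th percentile of all values) lie close to background. A level cannot be compared between genes on such arrays, only between samples of 1 gene. A gene was called higher or lower when limma gave an adjusted p under 0.05 over all probe sets and a change over 2-fold. The fit assumes that the single arrays of days 4, 7 and 15 vary as the duplicates do. In whole tissue, more cells that make a transcript and more transcript per cell cannot be told apart. Day 20 replicate 1 stood apart from the other grafts, with 11 kidney tubule markers at a median of 5.57 above the day 0 mean on the log2 scale, against -0.13 on day 20 replicate 2 and between -0.2 and 0.26 on the other grafts, and day 20 differences without it are therefore given for each of the 9 genes. On day 0, replicate 1 had higher skeletal muscle transcripts than replicate 2 (Myh3 8.19 and 5.06, Acta1 8.64 and 5.93). Of 9 ovarian somatic markers, all were above the 25th percentile on every array, but their median difference from day 0 was -1.36 on day 10 (3 called lower and 0 higher) and -2.03 on day 20 (6 lower and 0 higher).

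Of the 9 genes, 8 had every one of the 7 graft arrays above both day 0 arrays, and the exception was Fmod. For Prelp this held on 1 of its 2 probe sets, whereas on the other, 5 of the 7 graft arrays were above both day 0 arrays. Aspn and Dpt were chosen for their change against day 0, so that those changes are given as a description with no test. Among the other 7 genes, 4 were called higher on day 4 (Bgn, Dcn, Lum and Ogn), when 0.774% of all probe sets were called higher. The same 4 of 7 were called higher on day 7 (1.28% of all probe sets), 6 of 7 on day 10 (2.87%), 5 of 7 on day 15 (2%) and 6 of 7 on day 20 (4.52%), and 0 were called lower on any of these days. The shares of all probe sets called lower were 0.155% on day 4, 0.386% on day 7, 1.33% on day 10, 0.8% on day 15 and 3.1% on day 20, and all comparisons with day 0 share its 2 arrays. Counted by gene, each by its brightest probe set, the shares called higher were larger on each of these days. They were 3.87% of all genes on day 10 and 6.31% on day 20. On the log2 scale, the median change of the 9 genes against day 0 was 3.72 on day 10 and 3.90 on day 20, whereas the medians over all genes were -0.13 and -0.14. The day 4 and day 7 calls were the least firm, since 0 of 7 genes were called on day 4 without either array of day 0 or of day 10, and 0 on day 7 without day 0 replicate 2 or either array of day 10. Aspn and Dpt were selected by these changes and the other 7 genes as their family, with earlier results of these arrays known. The counts and adjusted p-values therefore describe these genes and are not evidence about the family.

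**Figure D1:**
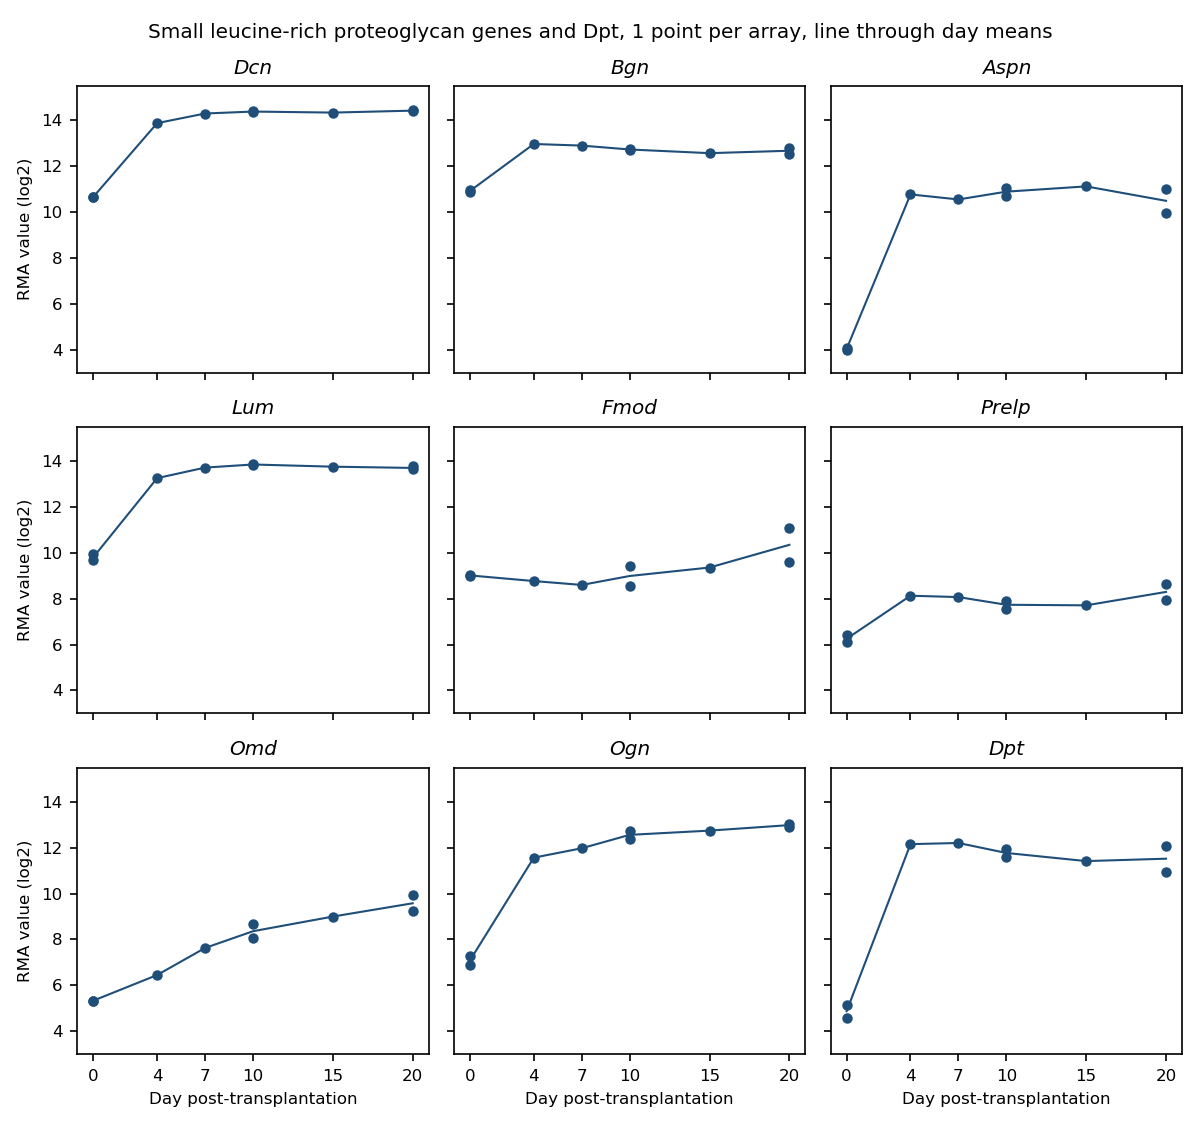
Log2 RMA value of each of the 9 genes (y axis) against the day post-transplantation (x axis), with a point for each array and a line through the day means. All genes except Fmod had every graft array above both day 0 arrays, and Omd had its lowest graft value on day 4 (6.45) and its highest on day 20 (9.92).

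Decorin, biglycan and asporin form class I of the family. Dcn, which encodes decorin, a ligand of collagen fibrils and of TGF-beta, was at 10.67 and 10.65 on day 0, 13.88 on day 4, 14.30 on day 7, 14.40 and 14.37 on day 10, 14.34 on day 15 and 14.45 and 14.40 on day 20. The graft arrays lay within 0.57 of each other and did not overlap day 0. Dcn rose 13.2-fold on day 10 (log2 difference 3.72, standard error, SE, 0.14, adjusted p = 0.0017) and 13.6-fold on day 20 (3.76, adjusted p = 0.000967). Its other probe set, with lower signal, gave 3.21 on day 10 and 3.02 on day 20. Both calls of Dcn held whichever array of days 0, 10 or 20 was removed.

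Bgn, which encodes biglycan, a relative of decorin that also acts as a ligand of Toll-like receptors, was at 10.88 and 10.96 on day 0, 12.97 on day 4, 12.90 on day 7, 12.75 and 12.71 on day 10, 12.57 on day 15 and 12.80 and 12.55 on day 20. Its highest graft array was that of day 4, and the grafts spanned only 0.42. Bgn rose 3.5-fold on day 10 (log2 difference 1.81, SE 0.16, adjusted p = 0.00695) and 3.37-fold on day 20 (1.75, adjusted p = 0.00494), and the single day 4 array was 4.13-fold higher (2.05, adjusted p = 0.0203). The other probe sets of Bgn gave 2.16 and 2.02 on day 10 and were also called. Without either array of day 0 or of day 10, the adjusted p of Bgn on day 10 lay between 0.0538 and 0.0910 and its call ended, and its day 4 call ended in the same fits (adjusted p up to 0.13).

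Aspn encodes asporin, which binds collagen and TGF-beta and, unlike decorin, carries no glycosaminoglycan chain. Aspn was at 4.08 and 3.97 on day 0, 10.77 on day 4, 10.55 on day 7, 11.06 and 10.72 on day 10, 11.12 on day 15 and 9.98 and 11.00 on day 20. Both day 0 arrays were under the 25th percentile of all values, that is close to background, and every graft array was at least 5.90 above them on the log2 scale. The log2 difference from day 0 was 6.75 on day 4, 6.86 on day 10 (116-fold, SE 0.35) and 6.47 on day 20. When all values below the 25th percentile were set to that percentile, the difference was 6.07 on day 10 and 5.67 on day 20, so that the size of the fold is uncertain. The second probe set of Aspn gave 6.36 on day 10. The lowest graft value of Aspn was that of day 20 replicate 1, the array with kidney transcripts, and without it the day 20 difference was 6.98.

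Lumican, fibromodulin, PRELP and osteomodulin form class II. Lum encodes lumican, a keratan sulfate proteoglycan known for its part in the transparency of the cornea, and was at 9.68 and 9.93 on day 0, 13.26 on day 4, 13.72 on day 7, 13.82 and 13.89 on day 10, 13.76 on day 15 and 13.64 and 13.77 on day 20. Like Dcn, it was near its highest level from day 7 on. Lum rose 16.6-fold on day 10 (log2 difference 4.05, SE 0.17, adjusted p = 0.00183) and 14.9-fold on day 20 (3.90, adjusted p = 0.00112), and both calls held in the same 6 fits without an array.

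Omd encodes osteomodulin, also called osteoadherin, which was described in mineralized bone matrix. Omd was at 5.33 and 5.33 on day 0, 6.45 on day 4, 7.63 on day 7, 8.67 and 8.05 on day 10, 9.0 on day 15 and 9.24 and 9.92 on day 20. Its day means increased at every step to day 20, and its range over the grafts was 3.47. The day means of Ogn did so on 1 of its 2 probe sets, with a range of 1.49, whereas on the other the day 15 array was at 11.89 and the day 10 mean at 12.03. The change of Omd against day 0 was 1.13 on day 4 (SE 0.38) and 2.30 on day 7, neither of which was called. Omd then rose 8.17-fold on day 10 (log2 difference 3.03, SE 0.31, adjusted p = 0.00919), 12.7-fold on day 15 (3.67, adjusted p = 0.0132) and 19.1-fold on day 20 (4.25, adjusted p = 0.00288). On day 20 the call held without any single array of days 0, 10 or 20, whereas on day 10 it ended without either array of day 0 or of day 10 (adjusted p up to 0.0744). On day 15 it ended without either day 0 array (adjusted p up to 0.0847).

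Prelp encodes PRELP, a heparin-binding member found in basement membranes and cartilage, and was at 6.40 and 6.10 on day 0, 8.13 on day 4, 8.07 on day 7, 7.90 and 7.57 on day 10, 7.71 on day 15 and 8.63 and 7.96 on day 20. It was called higher on day 10 (2.80-fold, log2 difference 1.49, SE 0.28, adjusted p = 0.0462) and on day 20 (4.13-fold, 2.05, adjusted p = 0.0136). The second probe set of Prelp was at 6.46 and 6.03 on day 0, 6.29 and 6.32 on day 10 and 6.88 and 6.46 on day 20, and gave 0.06 (adjusted p = 0.908) on day 10 and 0.43 (adjusted p = 0.299) on day 20. The rise of Prelp therefore rests on 1 of 2 probe sets. The day 0 means of the 2 probe sets were 6.25 and 6.24, so that the one used was the brighter only through its graft values. Its rise is thus not independent of the way it was chosen. The call of Prelp also ended on day 10 without either array of day 0 or of day 10, and on day 20 without either day 0 array.

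Fmod encodes fibromodulin, a keratan sulfate proteoglycan that binds the same region of collagen as lumican. Fmod was at 8.99 and 9.04 on day 0, 8.77 on day 4, 8.60 on day 7, 9.41 and 8.57 on day 10, 9.36 on day 15 and 11.10 and 9.60 on day 20. The arrays of days 4 and 7 lay below day 0, those of day 10 on both sides of it, and only 4 of 7 graft arrays were above both day 0 arrays. Its change was -0.03 on day 10 (SE 0.53, adjusted p = 0.986) and 1.33 on day 20 (SE 0.53, adjusted p = 0.181), and none of its 6 probe sets was called on either day. On day 20 all 6 were higher on replicate 1 than on replicate 2, by between 1.17 and 1.5. Prelp, Dpt and Bgn were also higher on replicate 1, by 0.67, 1.13 and 0.25, whereas Aspn and Omd were lower by 1.02 and 0.68. By their brightest probe sets, 5 of the 9 genes were higher on replicate 1 than on replicate 2.

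Transcripts known from kidney tubules and fat cells were high on day 20 replicate 1. The median day 20 change of the 11 kidney tubule markers was 5.57 when replicate 2 was left out, and -0.13 when replicate 1 was left out. The median of 6 adipocyte markers was 2.86 above day 0 on replicate 1 and 0.78 on replicate 2, with Adipoq, which encodes the fat cell hormone adiponectin, at 11.18 on replicate 1 and 6.59 on replicate 2. Without replicate 1, the day 20 change of Fmod was 0.58 (adjusted p = 0.364), and without replicate 2 it was 2.08 (adjusted p = 0.0288). Without replicate 1, the change of Prelp was 1.71 (adjusted p = 0.0286) and still called, and 6 of 7 genes were called higher on day 20 as before. The day 20 differences without replicate 1 were 3.74 for Dcn, 1.63 for Bgn, 3.97 for Lum, 4.59 for Omd and 5.98 for Ogn, with adjusted p between 0.00587 and 0.0138. The part of kidney or fat tissue in the day 20 values of Fmod was not tested.

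**Figure D2:**
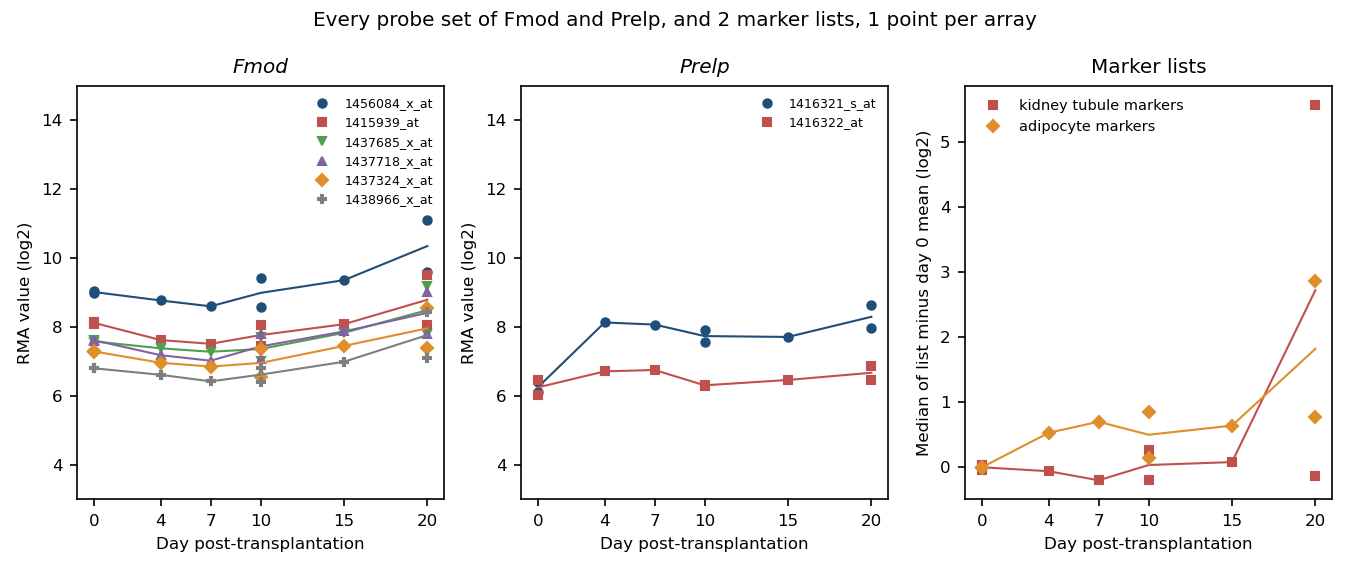
Log2 RMA values of all 6 probe sets of Fmod and both of Prelp, and the median of the kidney tubule and adipocyte marker lists minus the day 0 mean, against the day post-transplantation, with a point for each array and a line through the day means. The highest points of Fmod (11.10) and of the kidney list (5.57) came from the same array, day 20 replicate 1.

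Ogn encodes osteoglycin, also called mimecan, of class III. Ogn was at 6.89 and 7.28 on day 0, 11.57 on day 4, 11.98 on day 7, 12.73 and 12.40 on day 10, 12.75 on day 15 and 12.92 and 13.06 on day 20. It had the largest rise among the 7 genes tested, 44.5-fold on day 10 (log2 difference 5.48, SE 0.21, adjusted p = 0.0017) and 59.9-fold on day 20 (5.91, adjusted p = 0.000967). The second probe set of Ogn gave 5.79 and 6.13, and the calls of both days held in the 6 fits without an array.

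Dpt was at 4.58 and 5.16 on day 0, 12.16 on day 4, 12.21 on day 7, 11.62 and 11.93 on day 10, 11.42 on day 15 and 12.09 and 10.96 on day 20. Its day 0 arrays lay on both sides of the 25th percentile of all values, so that its fold is uncertain too, and the grafts of days 4 and 7 held its highest values. The log2 difference from day 0 was 7.29 on day 4 (157-fold), 7.34 on day 7, 6.91 on day 10 (120-fold, SE 0.41) and 6.65 on day 20 (6.09 without day 20 replicate 1). Dpt has a single probe set of its own.

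The calls on the days with 1 array, which take their spread from the other days, were those of Bgn, Dcn, Lum and Ogn, and on day 15 also that of Omd. On day 4, Ogn was 22.4-fold higher (log2 difference 4.49, SE 0.26, adjusted p = 0.00831), Lum 10.9-fold (3.45, adjusted p = 0.00892) and Dcn 9.3-fold (3.22, adjusted p = 0.00824). These calls all ended without either array of day 0 or of day 10 (adjusted p up to 0.0729). On day 7 the differences were 29.7-fold for Ogn, 15.1-fold for Lum, 12.5-fold for Dcn and 3.95-fold for Bgn, and on day 15 they were 50.7-fold for Ogn, 12.8-fold for Dcn and 3.15-fold for Bgn, with a log2 difference of 3.95 for Lum. The day 15 calls of Ogn, Lum and Dcn held whichever array of days 0, 10 or 20 was removed, whereas that of Bgn ended without either array of day 0 or of day 10 (adjusted p up to 0.107). Prelp stood at 3.67 times its day 0 level on day 4 (adjusted p = 0.0936), 3.54 times on day 7 (adjusted p = 0.078) and 2.75 times on day 15 (adjusted p = 0.0992), and passed the test on none of these days.

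The 9 genes differed in how much of their log2 difference from day 0 was already there on day 4. The day 4 array had reached 100% of the highest graft difference from day 0 for Bgn on the log2 scale, 99.3% for Dpt and 95.0% for Aspn. It had reached 85.0% for Dcn, 84.6% for Lum, 78.9% for Prelp and 75.1% for Ogn, but 24.5% for Omd. On the second probe sets the share was 64.1% for Dcn and 79.7% for Ogn, so that these genes had no fixed order. For Prelp the highest graft was day 20 replicate 1, and the day 4 array was above all the others. These shares rest on a lone day 4 array and were not tested against each other. They are shares of a log2 difference and not of a fold. In folds, Ogn was 22.4-fold higher on day 4 and 59.9-fold on day 20, and Omd 2.18-fold and 19.1-fold.

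Between graft days, none of the 9 genes was called. Days 10 and 7, 15 and 10, and 20 and 10 gave 0 of 9 genes each in limma, with 0, 0 and 2 genes at an unadjusted p under 0.05, and the shares of all probe sets called higher were 0%, 0% and 0.00222%. The 2 genes were Omd, with 9.24 and 9.92 on day 20 and 8.67 and 8.05 on day 10 (log2 difference 1.22, SE 0.31, adjusted p = 0.761), and Fmod (1.36, SE 0.53, adjusted p = 0.977). In a comparison chosen after the values were seen, day 20 exceeded day 4 by 3.13 for Omd (SE 0.38, adjusted p = 0.0714) and by 1.42 for Ogn (SE 0.26, adjusted p = 0.147), when 0.0177% of all probe sets were called higher. Dpt and Bgn ran the other way, with day 20 minus day 4 differences of -0.64 (SE 0.51) and -0.29 (SE 0.20) that did not pass the test.

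Over the 7 graft arrays alone, Omd and Ogn had a Pearson r of 0.983, Dpt and Bgn of 0.894 and Lum and Dcn of 0.878, whereas Omd and Bgn had -0.835 and Omd and Dpt -0.743. Aspn had its largest positive value, 0.220, with Lum. These coefficients are descriptions over 7 arrays, 4 of which share a day with another array, and carry no test.

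**Figure D3:**
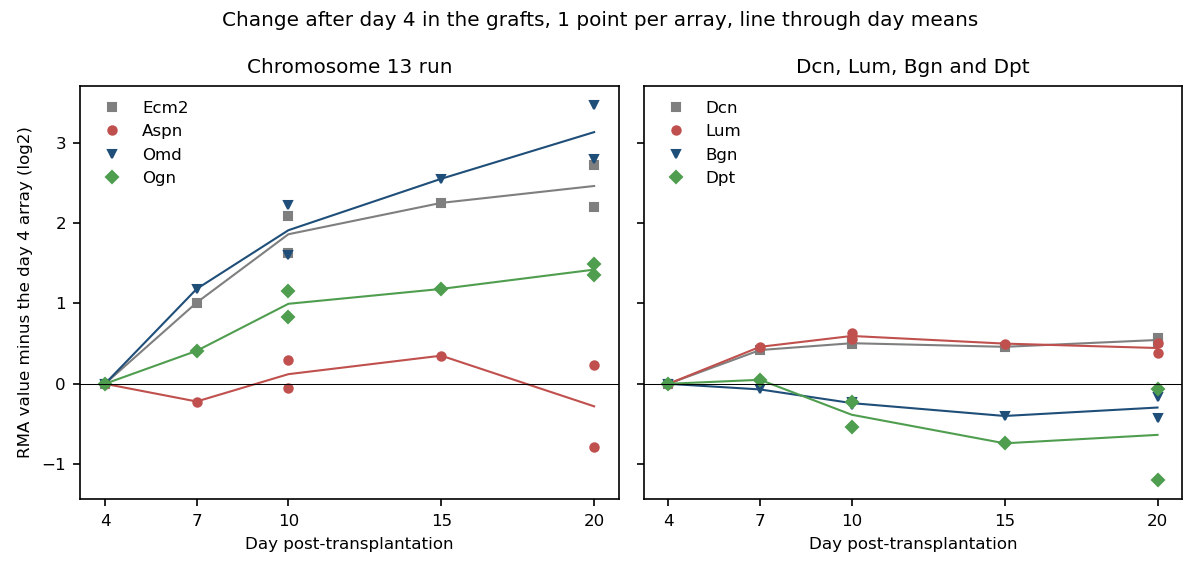
Log2 RMA value of each graft array minus the day 4 array, for Ecm2, Aspn, Omd and Ogn, which lie in a row on chromosome 13, and for Dcn, Lum, Bgn and Dpt, with a point for each array and a line through the day means. Omd, Ecm2 and Ogn lie above 0 on every later array, whereas Aspn lies on both sides of 0 and Bgn and Dpt lie below it from day 10 on.

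Several of these genes are neighbours in the genome. In the RefSeq gene table of GRCm38.p6, Ecm2, Aspn, Omd and Ogn follow each other on chromosome 13 with no other protein-coding gene between them, and Nol8 comes next. Ecm2, which encodes a matrix protein with leucine-rich repeats, was at 3.85 and 3.99 on day 0, 4.98 on day 4, 5.99 on day 7, 7.07 and 6.61 on day 10, 7.23 on day 15 and 7.18 and 7.70 on day 20. It started near background and, like Omd, had its lowest graft value on day 4. Ecm2 rose by 2.92 on day 10 (SE 0.25, adjusted p = 0.00655) and by 3.52 on day 20 (adjusted p = 0.00287) on the log2 scale, sizes that are uncertain with day 0 close to background, and its day 10 call ended without either array of day 0 or of day 10 (adjusted p up to 0.0616). Nol8, which acts in ribosome production, differed from day 0 by -0.16 on day 10 (adjusted p = 0.777) and 0.04 on day 20 (adjusted p = 0.947). Within this row, Aspn had 95.0% of its highest log2 difference from day 0 on day 4, whereas Omd had 24.5%.

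On chromosome 10, Dcn and Lum are neighbours and Kera, which encodes the corneal proteoglycan keratocan, follows Lum. Kera was at or under 4.56 on every array and was not called (day 10, log2 difference 0.32, adjusted p = 0.538). On chromosome 1, Prelp and Fmod lie between Optc, which encodes opticin of the vitreous of the eye, and Btg2, neither of which was called on day 10 or 20. Also on chromosome 1, Dpt lies between Atp1b1, which was not called, and Xcl1, a chemokine gene that rose by 1.32 on day 10 (adjusted p = 0.0435) and 1.55 on day 20 (adjusted p = 0.0194). On the X chromosome Bgn lies between Haus7 and Atp2b3. Atp2b3, which encodes a calcium pump, fell by 1.57 on day 10 (adjusted p = 0.0268) and by 1.37 on day 20 (adjusted p = 0.0252), and Haus7 fell by 1.63 on day 20 (adjusted p = 0.0236).

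The RefSeq promoter table held 7 of the 9 genes (Dcn and Lum were not among them). In the 250 bases before the annotated start, the longest run of letters that any of the 21 pairs of genes shared was GAATTCCACCTTAAA, 15 letters long, in Dpt and Omd. It begins 122 bases before the start of Dpt and 115 bases before that of Omd, on the same strand, and 2 of 32851 promoters in the table held it, or 0.00609%. Its first 9 letters were also in Ogn, 45 bases before the start. The first 8, GAATTCCA, were in these 3 genes and in 0.968% of all promoters on either strand, but not in Aspn, Bgn, Fmod or Prelp. The shared run was found by comparing the promoters of these genes with each other, so that its rarity is a description. The 3 promoters are shown for this run, 5' to 3' on the plus strand of GRCm38.p6, with the shared letters in capitals: chr1:164796413-164796662 before Dpt, chr13:49582212-49582461 before Omd and chr13:49607765-49608014 before Ogn.
Dpt: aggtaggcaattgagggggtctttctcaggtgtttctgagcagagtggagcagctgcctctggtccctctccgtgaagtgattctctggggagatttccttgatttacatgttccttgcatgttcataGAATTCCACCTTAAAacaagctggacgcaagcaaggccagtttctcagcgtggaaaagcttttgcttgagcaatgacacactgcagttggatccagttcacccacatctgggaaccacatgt
Omd: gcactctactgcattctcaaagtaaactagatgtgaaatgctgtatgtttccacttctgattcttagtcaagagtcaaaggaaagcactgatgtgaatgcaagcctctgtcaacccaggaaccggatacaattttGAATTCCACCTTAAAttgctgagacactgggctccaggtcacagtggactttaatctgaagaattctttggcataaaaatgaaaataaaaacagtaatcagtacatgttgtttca
Ogn: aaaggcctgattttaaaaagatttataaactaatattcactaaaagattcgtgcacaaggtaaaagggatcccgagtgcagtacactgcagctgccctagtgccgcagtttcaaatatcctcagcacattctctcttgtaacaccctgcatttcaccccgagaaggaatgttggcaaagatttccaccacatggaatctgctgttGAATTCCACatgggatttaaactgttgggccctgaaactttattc
The capitals mark the run of 15 letters in Dpt and Omd and its first 9 letters in Ogn. Omd and Ogn share the 11 letters TTGAATTCCAC, which begin 117 and 47 bases before their starts and were in 0.0122% of all promoters. Other letters searched on both strands were AGAACA, one repeat of the androgen response element, in Bgn and in 16.1% of all promoters, the SMAD element CAGAC, in Prelp and Fmod and in 42.2%, the TATA box TATAAA, in Aspn and Ogn and in 12.4%, the TEAD core CATTCC, in Ogn and in 12.6%, and the AP-1 site TGACTCA, in 0 of 7 genes and in 4.46%. A match or its lack in this window says nothing about binding of a factor.

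By Pearson's r over the 9 arrays among 2196 other genes with a range of at least 2 on the log2 scale, the genes most like Dpt were Cilp, a matrix protein gene of cartilage (0.999), and Col1a2, which encodes a chain of type I collagen (0.994). Cilp was also the gene most like Bgn (0.997). Aspn was most like Thbd, the thrombomodulin gene (0.998), and Tgfbr2, which encodes a TGF-beta receptor (0.992). Dcn was most like Itgbl1 (0.996) and Ogn most like Igfbp7 (0.998), which encodes a secreted binding protein of insulin-like growth factors. Omd was most like its neighbour Ecm2 (0.993), followed by Fbxo32, a ubiquitin ligase gene (0.988). Lum was most like Pamr1 (0.996), and Prelp was most like Csf2rb, a cytokine receptor gene of myeloid cells (0.991). Fmod was most like Car3 (0.966), which encodes a carbonic anhydrase abundant in fat and muscle and was at 8.53 and 9.10 on day 0, 10.01 and 8.51 on day 10 and 13.56 and 11.16 on day 20. For genes that differ between the grafts and day 0, these coefficients mostly follow that step, and they carry no test.

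Of 8 other small leucine-rich proteoglycan genes measured, 2 were called higher on day 10 and on day 20 (Epyc and Ecm2) and 0 lower, with list medians of 0.22 and 0.09. The day 20 median had no fixed sign, at -0.22 without day 20 replicate 1 and 0.44 without replicate 2. Among all genes, 3.87% were called higher and 2.01% lower on day 10, and 6.31% were called higher and 4.51% lower on day 20. Epyc, which encodes epiphycan, a class III proteoglycan of growth cartilage, was at 4.60 and 4.36 on day 0, 8.83 on day 4, 8.56 on day 7, 8.18 and 8.06 on day 10, 7.43 on day 15 and 8.49 and 7.35 on day 20. Its profile, highest on day 4, was among the 3 most like that of Bgn (r = 0.989). Epyc was called higher on day 10 (log2 difference 3.64, SE 0.38, adjusted p = 0.00975), but with day 0 close to background the size of its rise is uncertain. Kera, Optc, Chad, Chadl, Nyx and Podn were not called on either day.

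Of 24 other proteoglycan core protein genes, 4 were higher and 1 was lower on day 10, and 6 were higher and 3 lower on day 20, with medians of 0.29 and 0.26 (0.16 on day 20 without replicate 1, when 7 were higher and 1 lower). Srgn, which encodes serglycin of blood cell granules, rose by 2.50 (adjusted p = 0.0224) on day 10 and by 3.39 (0.00655) on day 20 on the log2 scale. Vcan, which encodes the large chondroitin sulfate proteoglycan versican, rose by 2.14 and 1.59, and Sdc4, which encodes the cell surface proteoglycan syndecan 4, by 1.82 and 1.47. Gpc2, a glypican gene, fell by 2.05 and 2.93, and Acan and Gpc6 fell on day 20 alone by 1.78 and 1.06.

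The lists of enzymes that build the sugar chains are too short to tell their counts of calls from the shares of all genes. For higher calls these shares were 3.87% (day 10) and 6.31% (day 20). For lower calls they were 2.01% (day 10) and 4.51% (day 20). Of 20 chondroitin and dermatan sulfate genes, Dsel, a dermatan sulfate epimerase gene, rose by 1.55 (adjusted p = 0.0273) on day 10 and by 1.28 (0.0305) on day 20, and Csgalnact1, which starts chondroitin sulfate chains, fell by 1.44 (0.0286) and by 2.12 (0.00672). The other 18 were not called on either day. Of 7 keratan sulfate genes, limma called 0 on either day, with 3 at an unadjusted p under 0.05 on each day.

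Of 13 genes for collagens that these proteoglycans bind, 8 were called higher on day 10 and 7 on day 20. None was called lower, and the medians were 1.42 and 1.26. Among all genes, 3.87% were called higher on day 10 and 6.31% on day 20. Col6a3 rose 9.23-fold on day 10 (log2 difference 3.21, SE 0.25, adjusted p = 0.00534), Col1a1 by 2.38, Col6a1 by 2.16 and Col6a2 by 2.06 on the log2 scale. Of 17 collagen processing and cross-linking genes, 3 were called higher on both days and 0 lower: Pcolce2, Lox, which encodes the cross-linking enzyme lysyl oxidase, and Loxl1. Lox rose by 2.08 on day 10 and 1.37 on day 20.

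Of 15 genes for matrix partners of dermatopontin and fibroblast matrix, 6 were called higher on each day and 0 lower, with medians of 1.79 and 1.54 (0.99 on day 20 without replicate 1). Mfap5, a microfibril gene, was at 4.98 and 5.45 on day 0, 10.24 and 10.36 on day 10 and 9.62 and 9.11 on day 20, and rose 33.9-fold on day 10 (adjusted p = 0.00219). Thbs1, the thrombospondin 1 gene, rose by 4.59 on day 10, and Mfap4 by 3.39. Mgp, an inhibitor of calcification, rose by 2.76 on day 10 and 2.95 on day 20.

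Of 16 genes for ligands and receptors bound by decorin, biglycan or asporin, 5 were higher and 1 was lower on each day, with medians of 0.73 and 1.25 (0.96 on day 20 without replicate 1, when 8 were higher and 1 lower). Tlr4, a receptor for biglycan, was at 3.93 and 4.24 on day 0, 7.20 and 7.21 on day 10 and 7.95 and 7.75 on day 20, and was called higher on day 10 (log2 difference 3.12, adjusted p = 0.00321). Its day 0 arrays were close to background, so that the size of its rise is uncertain. Ccn2, a growth factor gene induced by TGF-beta, rose by 3.44 on day 10 (adjusted p = 0.00312), and Egfr, a receptor for decorin, by 2.21 on day 20 (adjusted p = 0.0321). Bmp2, a ligand of asporin, fell by 2.39 (adjusted p = 0.0173) on day 10 and by 2.57 (0.00968) on day 20.

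**Figure D4:**
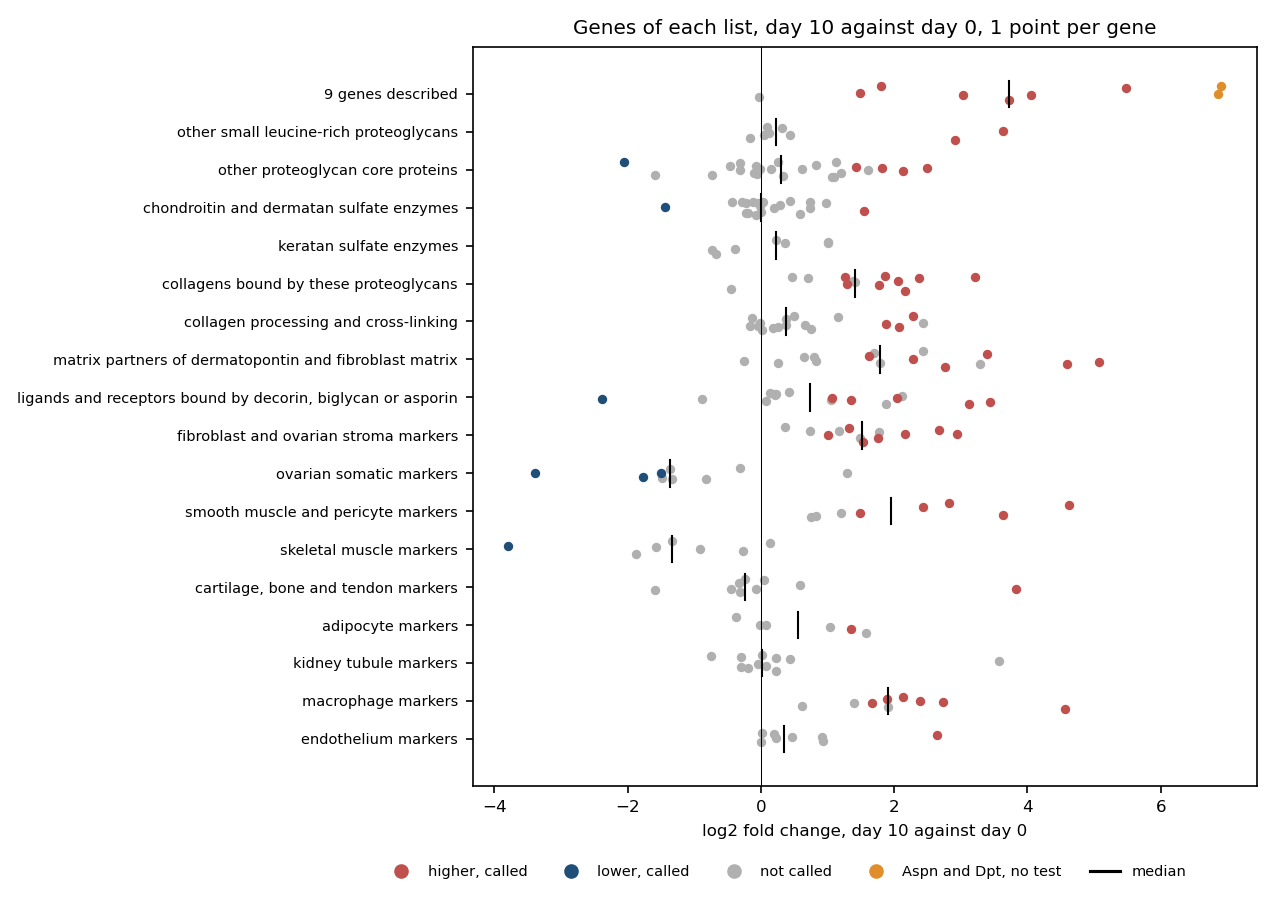
Log2 fold change on day 10 against day 0 (x axis) of the 9 genes and of the genes of each list (rows), with a point for each gene, coloured by its call, and a black line at each median. The 9 genes have a median of 3.72, the collagens of 1.42, the other small leucine-rich proteoglycans of 0.22 and the ovarian somatic markers of -1.36.

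Markers of other cell types moved with the days too. Of 12 fibroblast and stroma markers, 7 were higher on day 10 and 6 on day 20, and 0 lower, and the list median was between 1.37 and 1.65 above day 0 on all 7 graft arrays. Pi16 rose by 2.95 on day 10, Thy1 by 2.16 and Cd34 by 2.67, and Clec3b by 2.08 on day 20. Of 8 smooth muscle and pericyte markers, 5 were higher on day 10 and 4 on day 20, with Cnn1 at 4.63, Tagln at 3.64, Acta2 at 2.82 and Rgs5 at 2.43 above day 0 on day 10. Of 9 macrophage markers, 6 were higher on day 10 and 8 on day 20, and their median was 3.32 above day 0 on day 4, 1.44 on day 15 and 3.24 and 2.32 on day 20. Lyz2, the lysozyme gene of macrophages, rose by 4.56 on day 10 (adjusted p = 0.00197), Cd14 by 2.74, C1qa by 2.39 and Csf1r by 2.13. Of 9 ovarian somatic markers, 6 were lower on day 20, among them Lhx9 (-3.83), Fst (-2.30), Gata4 (-2.18) and Nr5a1 (-2.03).

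Omd, Epyc and Prelp are also known from cartilage and bone. Of 9 cartilage, bone and tendon markers, 1 was called higher on each day, Mkx, a tendon transcription factor gene (3.83 on day 10), and Acan was lower on day 20. Col2a1, which defines cartilage, was at 6.13 and 5.88 on day 10 and 6.47 and 6.43 on day 0, and the bone marker Ibsp was under 4.82 on every array. Of 8 endothelium markers, Vwf alone was called higher (2.65 on day 10), of 7 skeletal muscle markers Myh8 alone was called, lower by 3.79 on day 10, and of 6 adipocyte markers Lpl alone was called higher on each day (1.35 on day 10). Of 11 kidney markers, 0 were called on day 10 (1 at an unadjusted p under 0.05) and Miox on day 20. The part of changes in cell makeup in the levels of the 9 genes was not tested.

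Many calls in these lists ended when 1 array was removed. Of 57 list genes called on day 10, the calls of 4 (Lyz2, Mfap4, Mfap5 and Tagln) held in all 6 fits without an array of day 0, 10 or 20, and of 64 on day 20, those of 22. The day 20 list medians without replicate 1 were 1.14 for collagens, 1.37 for fibroblast markers and 2.32 for macrophage markers. They were 0.17 for endothelium markers and -0.13 for kidney tubule markers. Without replicate 2 these medians were, in the same order, 1.55, 1.57, 3.24, 0.18 and 5.57.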

How the data were processed

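RNA of pooled XX ovaries was measured on 9 Affymetrix mouse arrays of 45101 probe sets. The authors deposited log2 values per probe set, made by robust multiarray averaging (RMA), in which background is corrected, the arrays are quantile normalized and probes are summarised. Samples were labelled with either of 2 kits, with no record of the kit per array. The values come with no detection calls, and precision is limited by how few arrays there are.

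Probe sets were named from GEO's platform annotation, in which 34958 had 1 symbol, 932 several and 9211 none, with 64 control probe sets left in. The model held a mean per day (lmFit and eBayes of limma 3.58.1, R 4.3.3), had 3 residual and 2.69 prior degrees of freedom and was tested on simulated data. All 45101 probe sets entered the Benjamini-Hochberg adjustment. Each fold is 2 to the power of the log2 difference. Other steps used Python 3.11.15 with matplotlib 3.10.9, pandas 2.3.3 and numpy 2.4.6. Promoters came from a RefSeq table of GRCm38.p6, of which 250 bases before each start were read.

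The genes and lists were chosen with earlier results of these data known. The genes named were the 9 with all their probe sets, up to 4 called genes with the largest change on day 10 or 20 of each list plus any counted when 3 or fewer, the 3 genes most like each of the 9 (up to 2 of them given here) and the nearest protein-coding neighbours. Tsku and Podnl1 of the other proteoglycan list had no probe set of their own. Alternatives were an intensity trend, array quality weights, quantile normalization, centring on array medians, only brighter probe sets, a floor at the 25th percentile, only the 2 days compared, a replicate block, other probe sets and leaving out arrays. The comparison of day 20 with day 4, the other pairs of graft days outside days 10 and 7, 15 and 10, and 20 and 10, the shared promoter letters, and the list counts without arrays or with centred arrays were chosen after seeing the data.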

Additional observations from a re-analysis of the deposited data

How the results depend on the processing

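Of the 7 genes tested against day 0, 6 were called on day 10 and 6 on day 20 with the intensity trend, array weights, centring, the brighter probe sets and the 2 days alone. With quantile normalization Prelp lost its day 10 call (log2 fold change 1.42, adjusted p = 0.0739). With all values below the 25th percentile set to that percentile, Prelp and Omd lost it (adjusted p = 0.142 and 0.0675), and Prelp also on day 20 (0.0710). When the arrays of days 0, 10 and 20 were removed singly, 0 to 5 genes were called on day 4, 0 to 6 on day 7, 3 to 6 on day 10, 3 to 6 on day 15 and 5 to 7 on day 20. No gene was called on day 4 without either array of day 0 or of day 10, or on day 7 without day 0 replicate 2 or either day 10 array. On day 10, 3 genes (Dcn, Lum and Ogn) were called without either array of day 0 or of day 10, and on day 15, 3 without either of day 0. A fit without an array has fewer degrees of freedom, and over all probe sets the number called higher on day 10 was then 69 to 1774 (1293 with all arrays), and on day 20 it was 621 to 3144 (2037 with all arrays). Array weights gave 2034 higher calls on day 10, and the floor 606 on day 20. With the probe set of next highest mean per gene, 5 genes were called on day 10 and 5 on day 20, and the median log2 fold change of the 9 genes on day 10 was 3.21 in place of 3.72. Lum, Omd and Dpt have 1 probe set each and entered with it again, so that the calls of Lum and Omd could not differ here. The day 10 difference of Fmod, -0.03 with all arrays, was -0.44 without day 10 replicate 1 and had the other sign at 0.00 without day 0 replicate 2 and 0.39 without day 10 replicate 2, and it was called in none of these.

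The labels do not say whether same-numbered replicates belong together. The deviations of same-numbered arrays correlated at -0.16 (days 0 and 10), 0.15 (days 0 and 20) and -0.13 (days 10 and 20). These values give no sign of pairing but cannot settle whether the samples were paired. With the replicate block, 6 genes were called on day 10, 6 on day 20 and 0 on day 20 against day 10, as without it, with medians of 3.72 and 3.90. Over all probe sets, the block gave 989 higher calls on day 10 against 1293 without it.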
